A study of Bos taurus with 20 samples.

Results

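The 8 genes described here encode proteins of tight junctions, the belts that seal neighbouring epithelial cells to each other. They are the claudins CLDN1, CLDN4, CLDN7 and CLDN8, occludin (OCLN), the junctional adhesion molecule F11R, the plaque scaffold TJP1 (ZO-1) and cingulin (CGN). The genes were chosen with earlier results of these data known, so counts over them are descriptions. Their features were taken by name, as array features whose gene name or description gives one of these genes, and 11 of 21475 features matched. CLDN1, OCLN and TJP1 had 2 features each, and the brighter one stands for the gene. All 8 genes were measured well enough to be tested.

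In skin, tight junctions lie in the granular layer of the epidermis and in hair follicles and glands, where they limit the passage of water and solutes between cells. Claudins form the strands and set which ions pass, occludin and junctional adhesion molecules lie in the same membrane, and TJP1 and cingulin tie the strands to actin on the inside of the cell. CLDN1 is required for the water barrier of mouse skin, and polarity proteins of the PAR complex place the junction along the cell border.

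RNA came from skin biopsies of cattle that held epidermis, dermis and dermal connective tissue, and each RNA was hybridised with another on a 2-colour array. Biopsies were taken where horns form, from 4 polled (hornless) animals, 1 male and 3 females, 4 scurred animals (with loose, rudimentary horns), 3 males and 1 female, and 3 horned animals, 2 males and 1 female. Control skin came from the skull away from the horn site of 1 polled and 1 scurred animal. Breed, age and genotype are not given in the sources used here, and nothing says how the animals were related. Of the 20 arrays, 16 lay on chips 1 to 4, each chip joining 1 polled, 1 scurred and 1 horned animal in a loop, and 4 lay on chip 5, which set horn site against control site. Replicates are numbered by chip, and horned replicate 2 served on chips 2 and 4. The polled and scurred comparisons share the horned animals.

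Polled and scurred animals of the same chip were of opposite sex on all 4 chips, so horn type and sex overlap, and sex was a term of the fit. Between 62.245% and 73.75% of an array's spots were well above background. Scurred replicate 1 was the animal least like the others, correlating with them at 0.922 on average across features, against 0.949 to 0.965 for the rest. The scan day of chip 1 differed from that of chips 2 to 5. Of the basal keratinocyte markers, 8 of 8 were tested, with mean levels of 10.73 to 13.62 on the log2 scale over the 11 animals. These are means over the 8 markers, and a single tested marker may be near background in some animals. Since the biopsies are mixtures, fewer cells of a type and less RNA per cell cannot be told apart.

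The features are 60 bases long. Shown here, 5′ to 3′ as the array files give them, are 4 of them, so that it is clear which letters were measured for a claudin with an unadjusted p under 0.05, a claudin near background, and the dimmer second features of OCLN and TJP1.
CLDN4: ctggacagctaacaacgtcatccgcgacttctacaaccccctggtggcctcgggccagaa
CLDN7: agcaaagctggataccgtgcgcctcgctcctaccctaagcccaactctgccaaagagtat
OCLN: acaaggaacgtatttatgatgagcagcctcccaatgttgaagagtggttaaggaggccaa
TJP1: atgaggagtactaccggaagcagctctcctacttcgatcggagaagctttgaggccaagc
The dimmer CLDN1 feature and the brighter TJP1 feature have a stop codon in every reading frame as written, and were left out of a comparison of sequences. Between the remaining features of different genes, the longest run of identical bases was 11, over 35 pairs compared. In the gene order of the ARS-UCD2.0 assembly, CLDN4 lies next to CLDN3, CLDN8 between a keratin-associated protein gene (KRTAP24-1) and CLDN17, OCLN next to MARVELD2, and CLDN1 next to CLDN16.

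Polled against horned skin asks what differs where a horn would form and does not. Of the 8 genes, 7 stood higher in polled skin and TJP1 did not, with CLDN8 and CGN at more than 4 times the horned level in the fit. No member passed the threshold of 0.05 after Benjamini-Hochberg adjustment over 15712 features in limma's moderated test (0.00636% of features passed). An unadjusted p under 0.05 in the higher direction was found for 4 of 8 members, CLDN8, CGN, CLDN7 and F11R, against 4.78% of all features. A difference above 0 on every chip was found for 5 of 8, against 14.2% of all features. The median of the 8 log2 differences was 0.684, beside 0.0125 over all features tested.

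CLDN8, a claudin best known from the collecting ducts of the kidney, had log2 intensities of 8.76, 13.31, 12.24 and 13.33 in polled replicates 1 to 4, against 9.03, 10.29 and 9.8 in horned replicates 1 to 3. Of the polled animals, 3 lay above every horned animal and replicate 1 lay below them all. On its chip, the polled minus horned difference was −0.2, while chips 2, 3 and 4 gave 3.16, 2.48 and 2.94. The fit gave 2.14 (SE 0.578, 95% interval 0.78 to 3.51, unadjusted p 0.00731, adjusted p 0.469, limma), a 4.42-fold difference. Every group had its lowest CLDN8 level on chip 1, the chip scanned on another day, and within chips 2 to 4 alone the difference was 2.841 (adjusted p 0.225, limma). The animals of chip 1 were on no other chip, so scan day and animal cannot be told apart.

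CLDN1, the main claudin of the epidermal barrier, had levels of 12.34, 14.57, 12.94 and 13.96 in polled animals, against 11.85, 12.47 and 11.88 in horned animals. The groups overlapped through polled replicate 1 and horned replicate 2, although polled was higher on all 4 chips, by 0.44 to 2.02. The fitted difference was 1.15 (SE 0.494, unadjusted p 0.0516, adjusted p 0.538, limma). Its second, dimmer feature gave 1.16 (SE 0.539), and the 2 features followed each other over the 8 differences from horned animals with a correlation of 0.683.

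CLDN7, a claudin of the lateral membrane of many epithelia, had levels of 9.29, 9.21, 8.91 and 10.11 in polled animals, against 8.01, 9.11 and 8.62 in horned animals. Only polled replicate 3 lay below a horned animal, replicate 2. Differences by chip ran from 0.4 to 1.32, the largest on chip 1, and the fit gave 0.8 (SE 0.278, unadjusted p 0.0235, adjusted p 0.501, limma). Within chips 2 to 4 it was 0.503 (adjusted p 0.566, limma).

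CLDN4, a claudin of ducts and of the upper epidermis, was dim: its spots were well above background in 9 of 11 animals, not in horned replicate 3 or scurred replicate 4. Its levels were 6.61 to 7.3 in polled and 6.47 to 6.68 in horned animals, and the difference was 0.36 (SE 0.231, adjusted p 0.646, limma). For CLDN4 the same fit gave 1.081 on the authors’ deposited log ratios, turned to log2, and 1.101 on the processed signals of the scanner software.

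Occludin, a membrane protein of the strands that is not a claudin, had levels of 7.82, 9.03, 8.47 and 8.71 in polled animals, against 7.93, 7.93 and 7.82 in horned animals. Here too polled replicates 2 to 4 lay above every horned animal and replicate 1 did not. The difference was 0.57 (SE 0.286, unadjusted p 0.0855, adjusted p 0.573, limma), with −0.03 on chip 1 and 0.66 to 1.08 on the others. The dimmer OCLN feature gave 0.35 (SE 0.205).

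F11R, an adhesion molecule also found on blood cells and endothelium, had levels of 13.61, 14.05, 14.08 and 13.6 in polled animals, against 12.95, 13.47 and 13.12 in horned animals. The groups did not overlap, and the gap between the lowest polled and the highest horned animal, replicate 2, was narrow. The fit gave 0.55 (SE 0.214, unadjusted p 0.0363, adjusted p 0.524, limma), with chips from 0.04 on chip 4, which reused that horned animal, to 0.94 on chip 3.

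Of the plaque proteins, cingulin had levels of 9.63, 11.57, 10.64 and 11.11 in polled animals, against 8.2, 8.88 and 8.56 in horned animals. All 4 polled animals lay above all 3 horned animals, with differences by chip of 1.44, 2.64, 2.11 and 2.22. The fit gave 2.05 (SE 0.5, 95% interval 0.87 to 3.23, unadjusted p 0.00442, adjusted p 0.46, limma), a 4.13-fold difference. Without polled replicate 2 it was 1.279 (unadjusted p 0.0653, limma), and with any chip or animal left out it ran from 1.279 to 2.353. TJP1, the scaffold that also serves adherens junctions and is made in endothelium and fibroblasts as well, had levels of 12.08 to 12.48 in polled and 11.99 to 12.54 in horned animals. The difference was −0.07 (SE 0.211, 95% interval −0.57 to 0.43, adjusted p 0.94, limma), and its dimmer feature gave −0.09 (SE 0.105). The 2 features of TJP1 correlated at only 0.362 over the 8 differences from horned animals. In scurred skin they had opposite signs, −0.12 and 0.04 against horned skin and −0.05 and 0.13 against polled skin.

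Within chips 2 to 4, which share a scan day, the polled versus horned differences of the other members were 2.272 for CGN, 1.388 for CLDN1, 0.773 for OCLN, 0.537 for F11R, 0.396 for CLDN4 and −0.087 for TJP1.

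**Figure D1:**
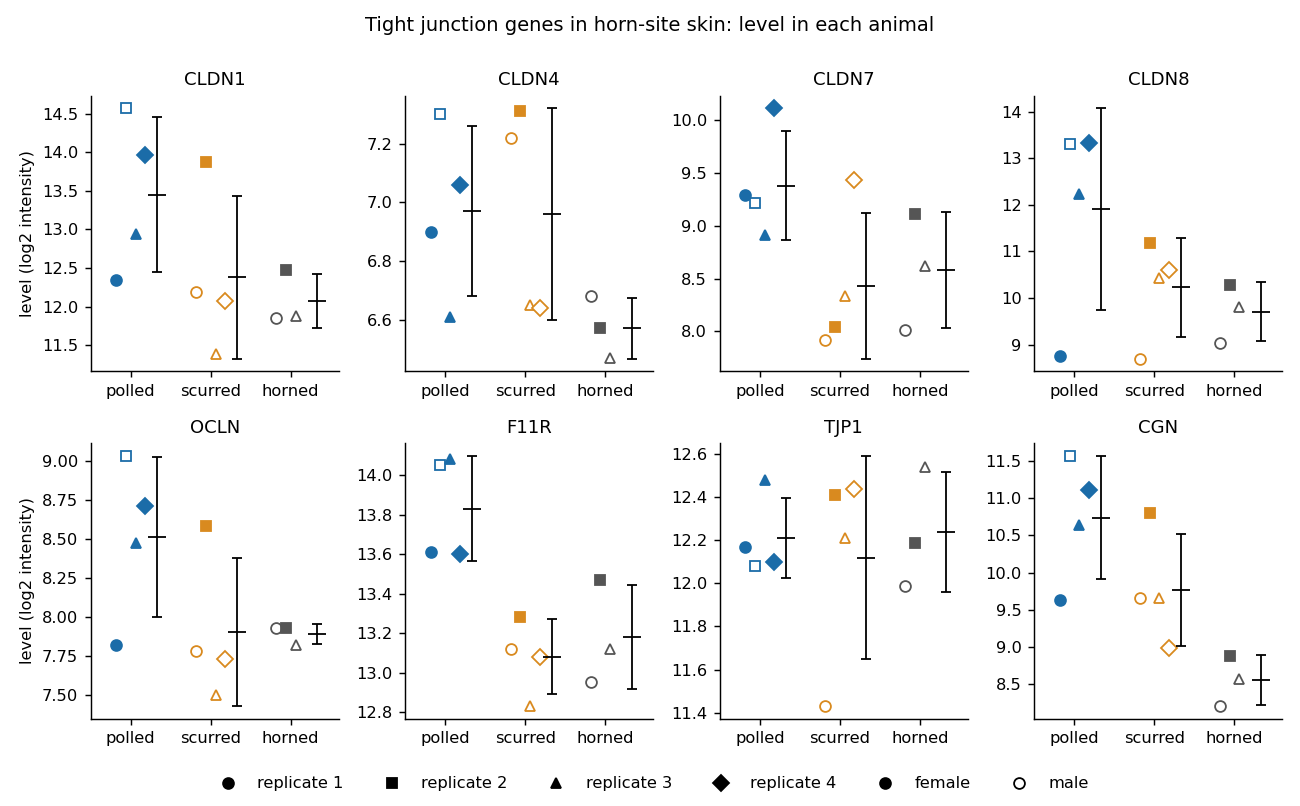
Level of each gene on the log2 intensity scale (vertical axes, each with its own range) in polled, scurred and horned animals. Points are animals, with shape for the replicate and open symbols for males, and bars are means ± SD. For CGN the 3 horned animals lie below all others, for F11R the 4 polled animals lie above all others, and for CLDN8 polled replicate 1 lies near 8.76 while the other polled animals lie at 12.24 or higher.

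Scurred against horned skin asks the same where a rudimentary horn forms. Only CGN had an unadjusted p under 0.05 among the 8, against 1.6% of all features in the higher direction, and no member passed after adjustment (0% of features passed). CGN was also the 1 member higher on every chip, against 8.49% of features. The other 7 differences lay between −0.14 and 0.31, 3 above 0 and 4 below, and the median over the 8 was 0.0408, beside 0.00623 over all features.

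Cingulin had levels of 9.66, 10.8, 9.66 and 8.98 in scurred animals, against 8.2, 8.88 and 8.56 in horned animals. The scurred animals lay above the horned ones without overlap, by a narrow margin in replicate 4, whose difference from the horned animal of its chip was 0.07 while chips 1 to 3 gave 1.49, 1.93 and 1.06. The fit gave 1.12 (SE 0.476, 95% interval 0 to 2.25, unadjusted p 0.0494, adjusted p 1, limma). It was 1.075 within chips 2 to 4 (unadjusted p 0.109) and 0.852 with scurred replicate 1 left out (unadjusted p 0.152, limma).

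For the claudins, intervals of the scurred minus horned difference reached from −1.01 to 1.21 for CLDN1, from −1.1 to 1.49 for CLDN8, from −0.64 to 0.6 for CLDN7 and from −0.21 to 0.82 for CLDN4. These intervals do not show that scurred and horned skin were alike in these genes. OCLN stood at −0.08 (SE 0.272), F11R at −0.14 (SE 0.203) and TJP1 at −0.12 (SE 0.201). Scurred replicate 2, the 1 female of its group, had the highest scurred level of CLDN1 (13.87), CLDN8 (11.19), OCLN (8.58), F11R (13.28) and CGN (10.8).

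Scurred against polled skin compares both kinds of animal without a full horn. All 8 genes stood lower in scurred skin in the fit, at a median of −0.752, beside −0.0077 over all features. None passed after adjustment (0% of features passed). An unadjusted p under 0.05 in the lower direction was found for 3 of 8, CLDN8, F11R and CLDN7, against 3.09% of all features. A difference below 0 on every chip was found for 5 of 8, CLDN1, CLDN7, CLDN8, F11R and OCLN, against 9.43% of all features.

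CLDN8 had levels of 8.7, 11.19, 10.43 and 10.6 in scurred animals, against 8.76, 13.31, 12.24 and 13.33 in polled animals. Scurred was lower on every chip, by little on chip 1 (−0.11) and by −2.14, −1.77 and −2.75 on chips 2 to 4. The fit gave −1.95 (SE 0.561, 95% interval −3.27 to −0.63, unadjusted p 0.0101, adjusted p 0.792, limma), a ratio of 0.259. Within chips 2 to 4 it was −2.223 (adjusted p 0.373, limma), and without scurred replicate 1 it was −2.073 (adjusted p 0.488, limma).

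F11R had levels of 13.12, 13.28, 12.83 and 13.08 in scurred animals, against 13.61, 14.05, 14.08 and 13.6 in polled animals, with no overlap. The fit gave −0.69 (SE 0.207, unadjusted p 0.0126, adjusted p 0.793, limma), and the chips ran from −1.22 to −0.5. CLDN7 had levels of 7.92, 8.04, 8.33 and 9.43 in scurred animals, against 9.29, 9.21, 8.91 and 10.11 in polled animals. Scurred replicate 4 lay among the polled levels and the other 3 lay below them all, and the fit gave −0.82 (SE 0.269, unadjusted p 0.0185, adjusted p 0.793, limma).

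CLDN1 stood at −1.05 (SE 0.479, unadjusted p 0.0637), OCLN at −0.65 (SE 0.278, unadjusted p 0.05) and CGN at −0.92 (SE 0.485, unadjusted p 0.0979), with adjusted p of 0.844, 0.827 and 0.847 in limma. The chips differed widely in these 3 genes, and for CGN the scurred animal of chip 1 stood 0.06 above the polled one while that of chip 4 stood at −2.15. CLDN4 (−0.05, SE 0.224) and TJP1 (−0.05, SE 0.205) were lower on 2 of 4 chips. By order of group means, F11R, CLDN7 and TJP1 had the scurred group lowest, whereas CLDN1, CLDN4, CLDN8, OCLN and CGN had the horned group lowest. The polled group was highest in 7 of 8 genes, all but TJP1, with means of 6.97 in polled and 6.96 in scurred animals for CLDN4. Groups next to each other in these orders overlapped, except that polled lay above both others in F11R and horned lay below both others in CGN. Both margins were narrow, 13.6 against 13.47 in F11R and 8.98 against 8.88 in CGN. For these and the other separations of groups described here, the share of all features that separate likewise was not computed.

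**Figure D2:**
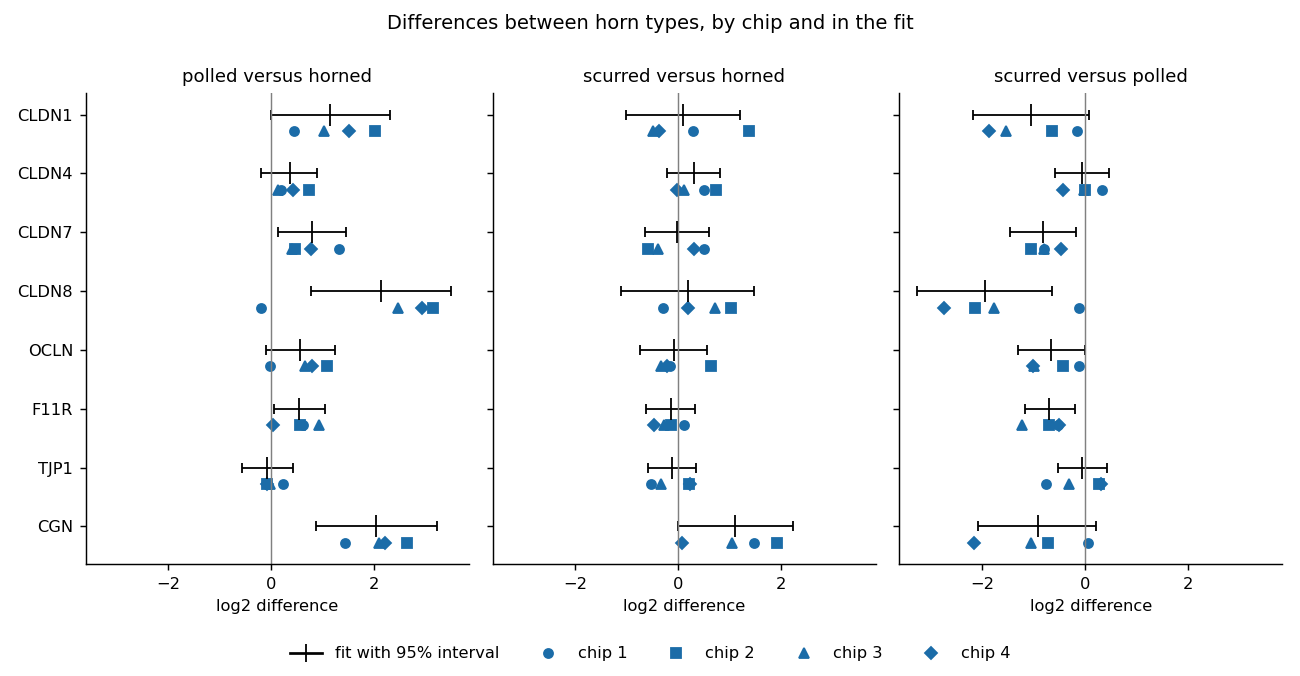
Log2 differences (horizontal axes) of the 8 genes for polled versus horned, scurred versus horned and scurred versus polled skin. Black ticks and bars are fitted differences with 95% intervals, adjusted for sex, and blue symbols are the unadjusted differences on chips 1 to 4. The polled versus horned intervals of CLDN8, CGN, CLDN7 and F11R lie above 0, and those of scurred versus horned skin lie around 0 except for CGN.

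Taken animal by animal, the median of the 8 differences from the horned animal of the chip was 0.34, 0.91, 0.8 and 0.78 in polled replicates 1 to 4. It was 0.2, 0.7, −0.3 and 0.02 in scurred replicates 1 to 4. The highest polled animal was replicate 2, the 1 male of its group, and the highest scurred animal was replicate 2, the 1 female of its group. Without polled replicate 2 the polled versus horned median was 0.394 and the scurred versus polled median −0.262, and 1 member in each comparison, CLDN7, had an unadjusted p under 0.05 (0.0114 and 0.0164, limma). In that fit the polled versus horned difference was 1.862 for CLDN8 (unadjusted p 0.0656), 0.52 for CLDN1, 0.269 for OCLN, 0.197 for F11R (unadjusted p 0.421) and 0.065 for CLDN4. The scurred versus polled difference was then −1.569 for CLDN8 (unadjusted p 0.133), −0.245 for F11R (unadjusted p 0.364) and 0.039 for CGN. Without chip 2, no member had an unadjusted p under 0.05 in either comparison. The share of all features by that rule was not computed for these fits.

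The 8 genes did not all vary together. Over the 8 differences, which share a horned animal within each chip, CLDN1 correlated with OCLN at 0.971 and with CGN at 0.907, and CLDN8 with OCLN at 0.882. TJP1 correlated with each of the other members at −0.143 to 0.206. CLDN7 had its highest correlation with F11R, 0.529, and lay between −0.207 and 0.127 with the others. These are descriptions of 8 values that share animals and arrays. The genes whose differences most resembled the mean of the 8, out of 11544 compared, were ACSS2, an acetyl-CoA synthetase (0.976), ADAMTSL5 (0.972), CYP27C1, a retinoid desaturase in zebrafish and human skin (0.957), STYXL1 (0.954) and ABCB10, a mitochondrial transporter (0.941). BCL6, RIC3, HSD17B12, SH3GLB2 and CRACDL followed at 0.929 to 0.934. These are the highest of 11544 correlations over 8 values, and high values arise by such selection alone. The likeness is one of pattern and not of size. Polled versus horned differences of these genes ran from 0.12 for ADAMTSL5 to 2.23 for CYP27C1.

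Other genes of tight junctions and of cell polarity were taken from a list of 50. Of these, 38 were tested on chips 1 to 4. In polled against horned skin, 21 stood higher and 17 lower, 5 with an unadjusted p under 0.05 in the higher and 2 in the lower direction, at a median of 0.0603. Of all features, 4.78% were higher and 4.53% lower by that rule. In scurred against horned skin the counts were 0 and 0, against 1.6% and 2.13% of all features, at a median of 0.041. In scurred against polled skin they were 2 in the higher and 1 in the lower direction, against 2.91% and 3.09% of all features, at a median of −0.0704. None passed after adjustment in limma.

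CLDN3, a claudin of glands and the neighbour of CLDN4, stood at 1.5 (SE 0.57, unadjusted p 0.033) in polled against horned skin, 0.72 (SE 0.543) in scurred against horned skin and −0.78 (SE 0.553) in scurred against polled skin. CLDN11, a claudin of myelin and of testis, stood the other way, at −1.58 (SE 0.405, unadjusted p 0.00566) in polled against horned skin, lower on all 4 chips, and at 1.33 (SE 0.393, unadjusted p 0.0113) in scurred against polled skin. Markers of Schwann cells, which also make myelin, stood lower in polled than in horned skin in 4 of 4 tested, with mean levels of 10.85 to 11.96 in polled and 11.69 to 12.14 in horned animals, and their part in the CLDN11 value was not tested. CLDN5, the claudin of blood vessels, stood at −0.27 (SE 0.367) in polled against horned skin.

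Among other membrane proteins, MARVELD2 (tricellulin), which seals the corners where 3 cells meet and neighbours OCLN, stood at 0.55 (SE 0.249, unadjusted p 0.0622) in polled against horned skin and at −0.5 (SE 0.242) in scurred against polled skin. JAM2, an adhesion molecule of vessels, stood at −0.36 (SE 0.188) in polled against horned skin, lower on all 4 chips. JAM3 and CGNL1 were not tested.

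Among plaque proteins, TJP3 (ZO-3), a scaffold restricted to epithelia, stood at 1.23 (SE 0.337, unadjusted p 0.00799) in polled against horned skin, 0.55 (SE 0.32) in scurred against horned skin and −0.68 (SE 0.327) in scurred against polled skin. PALS1, of the Crumbs polarity complex, stood at 0.43 (SE 0.131, unadjusted p 0.013) in polled against horned skin and at −0.41 (SE 0.127, unadjusted p 0.014) in scurred against polled skin.

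Of the polarity genes, PRKCZ, an atypical protein kinase C, stood at 1.02 (SE 0.288, unadjusted p 0.00919) and its partner PARD6B at 1.06 (SE 0.354, unadjusted p 0.0198) in polled against horned skin, both higher on 4 of 4 chips. PARD6A, a close relative of PARD6B, stood the other way, at −0.52 (SE 0.181, unadjusted p 0.0233), and at 0.42 (SE 0.176, unadjusted p 0.0495) in scurred against polled skin.

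**Figure D3:**
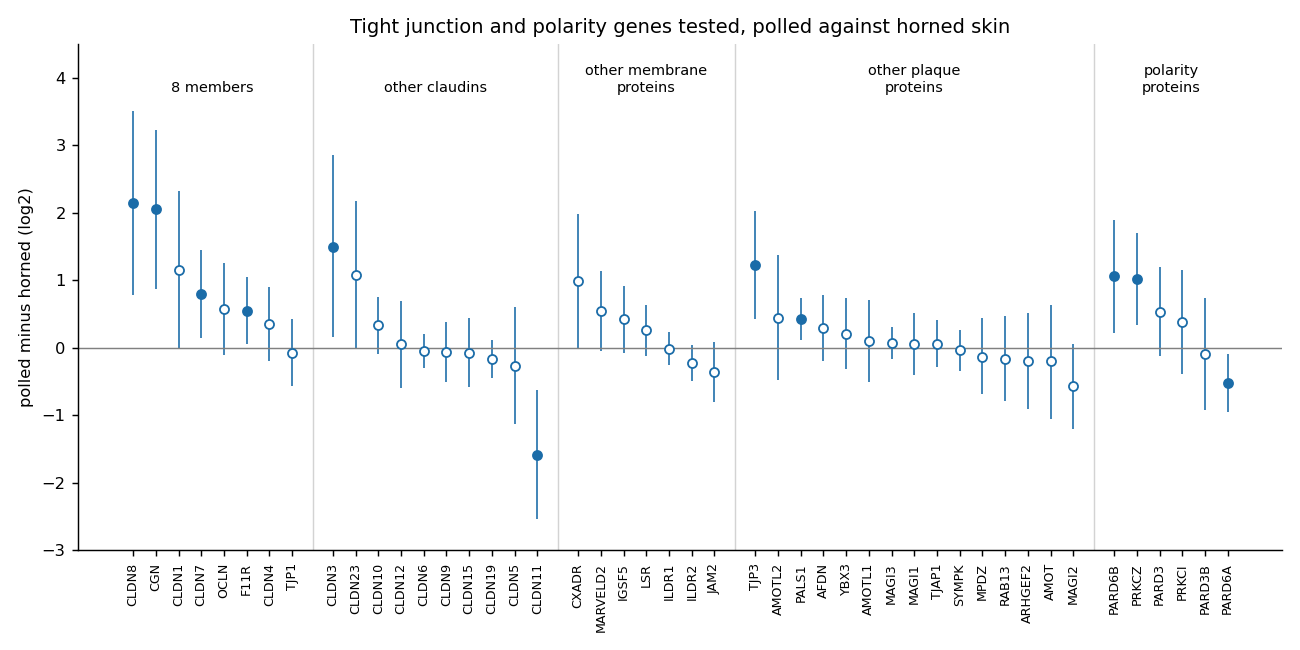
Fitted polled minus horned difference (log2, vertical axis) with 95% intervals for the 8 members and 38 other tight junction and polarity genes, sorted within each list. Filled points have an unadjusted p under 0.05. CLDN8 and CGN are the 2 highest points, and CLDN11 is the lowest at −1.58.

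Markers of several epithelial cell types stood higher in polled than in horned skin as well. Most of these lists also had medians above 0 in scurred against horned skin. Of 11 tested epithelial factors and surface genes, 11 stood higher in polled than in horned skin (median 1.81), with mean list levels of 9.1 to 10.76 in polled, 8.66 to 9.93 in scurred and 8.23 to 8.55 in horned animals. EPCAM, an epithelial adhesion molecule, stood at 2.74 (SE 0.886, unadjusted p 0.017) and GRHL2, a factor that drives junction genes, at 1.81 (SE 0.571, unadjusted p 0.0153). Adherens junction and desmosome genes stood higher in 7 of 7 (median 1.44), with levels of 8.69 to 10.34 in polled, 7.87 to 11.64 in scurred and 7.74 to 8.15 in horned animals. Basal keratinocyte markers stood higher in 7 of 8 (median 1.55), with levels of 11.76 to 13.25 in polled, 10.73 to 13.62 in scurred and 10.74 to 11.29 in horned animals. By unadjusted p under 0.05 (limma), 7 of 11 epithelial factors, 0 of 7 adherens junction and desmosome genes and 1 of 8 basal markers were higher. The share of all features higher by that rule was 4.78%. Medians of these lists in scurred against horned skin were 1.05, 1.05 and 1.16. The part of these lists in the differences of the 8 genes was not tested.

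Gland epithelium markers stood higher in 8 of 8 in polled against horned skin (median 1.14), at levels of 10.32 to 10.99 in polled, 9.94 to 10.9 in scurred and 9.65 to 9.83 in horned animals, so horned animals lay below all others. KRT18 and KRT7, keratins of simple and glandular epithelia, stood at 1.11 (SE 0.303) and 1.25 (SE 0.369). Hair sheath markers stood higher in 6 of 7 (median 1.82), but their levels of 8.09, 11.67, 8.25 and 10.24 in polled replicates 1 to 4 were high in replicates 2 and 4 alone. In polled replicates 1 and 3 they were at 8.09 and 8.25, within the range of horned animals, 8.04 to 8.55. CLDN8 and CGN levels were 8.76 and 9.63 in polled replicate 1, and 12.24 and 10.64 in polled replicate 3. By unadjusted p under 0.05 (limma), 5 of 8 gland and 5 of 7 hair sheath markers were higher, against 4.78% of all features. Their medians in scurred against horned skin were 0.613 and −0.0431. The part of gland and hair sheath markers in the values of the 8 genes was not tested.

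Suprabasal keratinocyte markers stood higher in 7 of 7 in polled against horned skin (median 2.06), at levels of 8.75 to 11.75 in polled, 8.26 to 13.67 in scurred and 8.26 to 9.04 in horned animals. With an unadjusted p under 0.05 (limma) were 1 of 7, against 4.78% of all features in the higher direction. The median in scurred against horned skin was 2.27. Suprabasal levels were 11.75, 11.12, 8.75 and 10.47 in polled replicates 1 to 4, where the 8 genes averaged 10.07, 11.39, 10.79 and 11.25. In scurred replicates 1 to 4 they were 13.67, 12.06, 8.32 and 8.26, where the 8 genes averaged 9.75, 10.69, 9.87 and 10.12. The part of suprabasal markers in the values of the 8 genes was not tested. Over the 8 differences from horned animals, the mean of the members correlated at 0.841 with gland and 0.832 with hair sheath markers. The correlation was 0.728 with epithelial factors, 0.561 with T cell markers and 0.5 with basal keratinocyte markers. For adherens junction and desmosome genes it was 0.365, and for suprabasal keratinocyte markers 0.147. With fibroblast markers it was −0.636 and with macrophage markers −0.54. Melanocyte, skeletal muscle, endothelial, red cell and Schwann cell markers lay between −0.318 and 0.206. All of these describe values that share animals and arrays. Fibroblast markers stood lower in 8 of 8 in polled against horned skin (median −1.13) and higher in 8 of 8 in scurred against polled skin (median 1.23). Their levels were 13.09 to 14.5 in polled, 14.04 to 15.17 in scurred and 14.82 to 14.94 in horned animals.

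**Figure D4:**
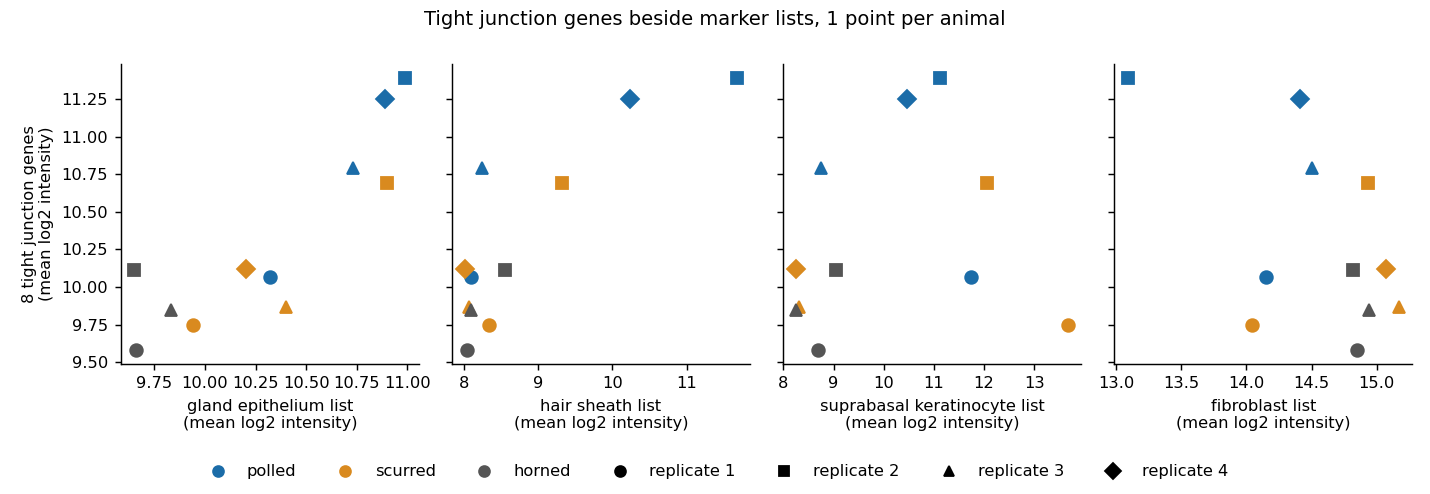
Mean level of the 8 genes (log2 intensity, vertical axis) against the mean level of 4 marker lists (horizontal axes), 1 point per animal with colour for horn type and shape for the replicate. Scurred replicate 1 has the highest suprabasal level, 13.67, and its level of the 8 genes, 9.75, lies within the range of horned animals, 9.58 to 10.11. In the gland panel the 3 horned animals lie at the left.

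Endothelial markers stood lower in 7 of 8 in polled against horned skin (median −0.23), at 11.07 to 11.9 in polled and 11.59 to 11.89 in horned animals. T cell markers stood higher in 5 of 5 (median 0.717), at 7.23 to 7.85 in polled and 6.83 to 7.29 in horned animals. Macrophage markers stood lower in 6 of 6 (median −0.457), and red cell (median 2.04, 4 of 4) and melanocyte markers (median 1.6, 5 of 5) higher. Skeletal muscle markers varied most, from 9.43 to 14.38 in polled and 7.85 to 11.89 in horned animals. By unadjusted p under 0.05 (limma), 3 of 5 T cell, 2 of 4 red cell and 0 of 5 melanocyte markers were higher, against 4.78% of all features. Lower by that rule were 1 of 8 endothelial and 2 of 6 macrophage markers, against 4.53% of all features. Medians of T cell, red cell and melanocyte markers in scurred against horned skin were 0.804, 2.45 and 1.43. The part of these cell types in the values of the 8 genes was not tested.

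Horn site against control site of the same animal asks whether a difference belongs to the place where horns form. It was measured in 1 polled and 1 scurred animal, each with both dye orders. None of the 8 genes passed after adjustment over 15290 features in limma (0% of features passed). None had an unadjusted p under 0.05, against 2.65% of all features in the higher and 2.06% in the lower direction. The median of the 8 mean differences was 0.0263, beside −0.00889 over all features. The animals stood on opposite sides of 0 in 7 of 8 genes. Of all features tested, 24% stood higher at the horn site in both animals and 26.5% stood lower in both.

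CLDN8 in the polled animal had levels of 12.27 at the horn site and 10.77 at the control site, a difference of 1.49. In the scurred animal it had 11.27 at the horn site and 12.82 at the control site, a difference of −1.55. The control site of the scurred animal was thus above both horn sites in CLDN8.

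CGN had levels of 10.63 at the horn site and 9.45 at the control site of the polled animal, a difference of 1.17, and 10.95 at the horn site and 11.64 at the control site of the scurred animal, a difference of −0.69. CLDN1 differed by 0.61 in the polled and −1.09 in the scurred animal, CLDN7 by 0.33 and −0.71, and OCLN by 0.4 and −0.21. F11R and CLDN4 differed by less than 0.2 in both animals, and TJP1, the 1 gene with the same sign in both, by 0.19 and 0.37. These are means of both dye orders, which gave 0.4 and −0.02 for TJP1 in the polled animal. For CLDN4 the sign changed with the dye order in both animals. With 1 animal per horn type, both female, horn type and animal cannot be told apart here.

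Marker lists differed between sites as well. Gland markers stood at 1.17 in the polled and −0.7 in the scurred animal (medians of 8 genes), hair sheath markers at 0.05 and −1.81, and suprabasal markers at −1.27 and 0.42. Skeletal muscle markers stood at 0.1 in the polled and 4.06 in the scurred animal, the widest site difference of these lists. The part of these in the site differences of the 8 genes was not tested.

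**Figure D5:**
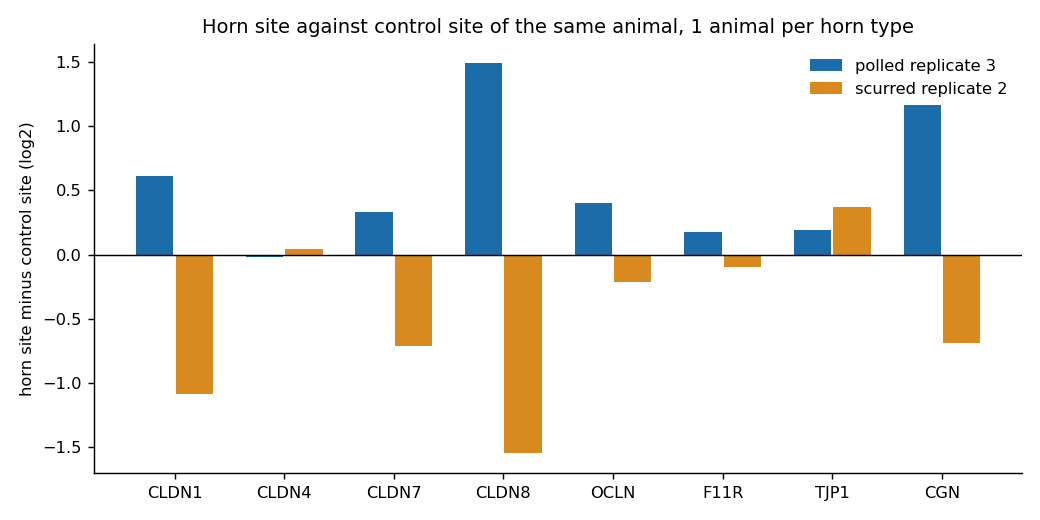
Horn site minus control site (log2, vertical axis) of the 8 genes in polled replicate 3 and scurred replicate 2, each bar the mean of 2 arrays with exchanged dyes. CLDN8 lies at 1.49 in the polled and −1.55 in the scurred animal, and TJP1 is the 1 gene above 0 in both.

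Differences measured with both dye orders gave 48 pairs of readings over the 8 genes. The sign was the same in 41 of 48 pairs, and the gap between orders had a median of 0.165 and a highest value of 0.74 on the log2 scale.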

How the data were processed

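RNA was measured on Agilent 2-colour arrays of cattle genes, 20 arrays on 5 chips, and groups were read from the labels. The authors deposited scanner files with a mean and a background intensity per spot and dye on a linear scale, and processed intensities that, per the file headers, the scanner software had background subtracted and dye normalized. Agilent Feature Extraction 9.5.1, per the submitters' processing notes, gave deposited log10 ratios of red over green. These recur in the authors' value table, where a check found the sign turned on 6 of 20 arrays (slopes of 1 and −1) and column medians from −0.019 to 0.00971. The log2 values here were computed from the deposited intensities.

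Mean signals were corrected with normexp (offset 50) and normalized by loess within arrays (R 4.3.3, limma 3.58.1, tables read with fread of data.table version 1.17.8). Flagged spots were left out and repeated spots averaged. Features were named through accessions, gene identifiers, human gene descriptions and symbols of a RefSeq gene table of the ARS-UCD2.0 assembly, which gave 16311 of 21475 a symbol. No genome was used, and the files name no build. A feature was tested when at least 50% of its spots were well above background in at least 3 of 11 animals (15712 features) or 2 of 4 RNAs of chip 5 (15290). At most 2 spots of an array were saturated.

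Arrays of chips 1 to 4 were reduced to 1 value per animal with a dye coefficient. These entered 1 limma fit with horn type, sex and blocks of chips joined by a shared animal (5 residual degrees of freedom). Two-sided moderated tests were adjusted over all tested features (Benjamini-Hochberg, threshold 0.05). The site test took the mean of 2 animals against 0 (1 residual degree of freedom). Levels are log2 intensities of separate channels, scaled between arrays by Aquantile, and compare animals, not genes. The steps were tested on simulated data. The number of animals limits the precision. Deviations of polled and scurred animals of the same chip from their group means correlated at 0.237, 0.287, 0.424 and −0.084 across features, and the block comes from the shared arrays and horned animal of a chip. Dye-exchanged arrays correlated at −0.948 to −0.821 (chips 1 to 4) and at −0.723 and −0.675 (chip 5).

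All 8 genes are described in every comparison. Of the other tight junction and polarity genes, those with an unadjusted p under 0.05 and CLDN3, CLDN5, JAM2, JAM3, TJP3, CGNL1 and MARVELD2 are named, and other lists give counts, medians and examples of low p. Likeness is Pearson's r over 8 differences. AMOT, the other gene the rule names, is given in the closing section, and 1 further item is not reported here. The members and lists were chosen with earlier results of these data known, so counts over them are descriptions.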

Additional observations from a re-analysis of the deposited data

Results flagged for a closer look

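The 4 animals of a group were examined for a value far from the rest in 40 sets of levels or chip differences of the 8 genes, and in none was the gap to the nearest animal, over the whole range, above Dixon's critical value. Chance gives about 1 such set in 20.

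Horn site minus control site had opposite signs in the polled and the scurred animal for 7 of 8 genes. Among all features tested, 24% were higher in both animals and 26.5% lower in both. The polled animal's difference exceeded the scurred animal's by 3.04 for CLDN8, 1.86 for CGN, 1.7 for CLDN1, 1.04 for CLDN7, 0.61 for OCLN and 0.28 for F11R on the log2 scale. For CLDN4, which was near background and changed sign with the dye order in both animals, it was −0.06. With 1 animal of each horn type, these differences were not tested.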

How the results depend on the processing

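No member passed the adjusted threshold in limma under any alternative or with any chip or animal left out. In polled against horned skin the signs of the 7 members other than CLDN4 held under all 11 other settings, and that of CLDN4 under the 10 in which it was tested. The median was 0.968 with the scanner software's processed signals and 0.948 with the authors' deposited log ratios. The count of members with an unadjusted p under 0.05 was 2 with no replicate block and separate channels. For this and the other fits of this section, the share of all features by that rule was not computed, so such counts are descriptions. Features past the adjusted threshold numbered 3 with the authors' log ratios, and 0 with median centring, with processed signals and with no replicate block. With a chip or animal left out, the median ran from 0.394 to 0.798, the unadjusted count from 0 to 7 (1 without polled replicate 2, 2 without horned replicate 1 or chip 3, 7 without scurred replicate 2), the features past the threshold from 0 to 1 and TJP1 from −0.331 to 0.199.

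In scurred against horned skin the median was −0.068 with median centring and −0.021 with the stricter filter, where CLDN4 was not tested. CLDN1 was −0.027 with median centring, and OCLN 0.014 with no replicate block. The unadjusted count was 0 with median centring and with no filter, and 1 feature passed with median centring. With a chip or animal left out, the median ran from −0.139 to 0.229, the unadjusted count from 0 to 2, the features past the threshold from 0 to 1, CLDN1 from −0.385 to 0.396, CLDN7 from −0.317 to 0.241, CLDN8 from −0.155 to 0.789, OCLN from −0.358 to 0.078 and TJP1 from −0.291 to 0.067.

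In scurred against polled skin the unadjusted count was 6 with no sex term (where 1 feature passed), 5 with a replicate block of each chip, and 1 with no replicate block. TJP1 was 0.043 with the mean of its features and 0.002 with no replicate block. With a chip or animal left out, the median ran from −0.942 to −0.262, the unadjusted count from 0 to 6 (1 without polled replicate 2, 5 without scurred replicate 2, 6 without polled replicate 1), the features past the threshold from 0 to 2, CGN from −1.503 to 0.039, CLDN4 from −0.396 to 0.262 and TJP1 from −0.489 to 0.111.

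Between sites, median centring gave −0.197 for the median, −0.037 for CGN, −0.351 for F11R, −0.015 for OCLN and −0.078 for TJP1. Processed signals gave −0.045 for the median, −0.064 for CLDN4 and −0.027 for F11R. CLDN4 was −0.005 with no background correction and −0.01 with the authors' log ratios. With 1 animal alone, the median ran from −0.448 to 0.364, CLDN1 from −1.092 to 0.612, CLDN4 from −0.016 to 0.038, CLDN7 from −0.712 to 0.326, CLDN8 from −1.551 to 1.492, CGN from −0.687 to 1.173, F11R from −0.099 to 0.182 and OCLN from −0.209 to 0.401. The cause of these shifts was not tested. Overlap of sex with horn type, 11 animals and the low signal of CLDN4 limit what can be read from these values, and residuals rest on 5 degrees of freedom.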

Other observations

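AMOT, an angiomotin that binds junction scaffolds, was the 1 other tight junction gene with an unadjusted p under 0.05 between sites, at 0.75 (SE 0.211, unadjusted p 0.0338, adjusted p 0.962, limma), higher at the horn site in both animals. It was 1 of 36 other tight junction and polarity genes tested between sites, against 2.65% of all features in the higher direction. CXADR, a virus receptor and adhesion molecule at tight junctions, and CLDN23 stood at 0.99 (SE 0.423) and 1.08 (SE 0.462) in polled against horned skin, higher on 4 of 4 chips, and neither had an unadjusted p under 0.05 (0.052 and 0.0519). Both were named after their values were seen.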
